A study of Homo sapiens with 4 samples.

Results

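Isolated protein-coding genes were examined: genes under 500000 bases long whose span lies at least 250000 bases from every other protein-coding span on the chromosome, on both sides. The rule uses positions alone, and 348 of the 19874 protein-coding genes (60048 genes of all types) met it. Nascent RNA was measured in HCT116, an established line from a human colorectal carcinoma, of the genotype RAD21-mAC, in which RAD21, a core subunit of cohesin, carries a tag that lets auxin trigger degradation of the protein. Both groups carried the tag. The control group (2 libraries) received the solvent DMSO and the auxin group (2 libraries) received 0.5 mM indole-3-acetic acid over 3 h. New RNA was labelled over 20 min with 0.5 mM 5-ethynyl uridine (EU), captured and sequenced (EU-seq). No untagged cells given auxin were analysed here, so loss of RAD21 and any other action of auxin cannot be told apart. The labels do not say whether the line is 1 clone or whether the 2 libraries of a group came from separate cultures, so p-values measure the spread between these libraries only.

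Gene deserts are long stretches of a chromosome without protein-coding genes, and many genes within them encode regulators of development whose enhancers lie far from the promoter. Cohesin extrudes loops of chromatin until it meets barriers such as bound CTCF, and this brings distant enhancers and promoters closer together. A gene alone in its desert has no other protein-coding promoter nearby on which such enhancers could act, although non-coding genes are often present.

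The unit throughout is scaled EU-seq signal per gene, that is, the deposited value after scaling of the libraries to each other. Deposited values summed to 78174823 and 78585045 in control replicates 1 and 2 and to 61135244 and 93113007 in auxin replicates 1 and 2, and the depth in reads is unknown. Of 8 colorectal epithelial markers, 6 had signal, from ELF3 (112 per kb of span) to KRT19 (2063 per kb), while CEACAM5 (0.934 per kb) and CDX1 (0.638 per kb) were near 0. Blood (4 genes), stromal (4) and endothelial (3) markers reached at most 5.06, 45.6 (COL1A1) and 3.02 per kb. Of the 19 markers, CD3E had too little signal to test and none of the others passed the threshold. The summed blood markers were 93.2 and 89.0 in control and 85.6 and 94.3 with auxin, and the groups overlapped. The summed stromal markers were 649 and 808 in control and 941 and 1086 with auxin, and the endothelial ones 581 and 649 in control and 680 and 819 with auxin. In both sums each auxin library was above each control library, and the part of this in the results was not tested.

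The promoters of 6 of the genes that changed with auxin are shown first, because they span the range of promoter types found among them. Each is the RefSeq window (GRCh38.p14) from 250 bases before to 50 bases after the gene start, written 5′ to 3′ on the gene's strand. Capitals mark GGGCGG, the core of the site bound by SP1-type factors, or its reverse complement CCGCCC, and TATAAA, the TATA box, each searched on both strands. IRS2 lies at chr13:109786534-109786833 (minus strand), HS3ST1 at chr4:11428845-11429144 (minus), KITLG at chr12:88580422-88580721 (minus; its RefSeq start is 380 bases from the start in the deposited table), FUT8 at chr14:65410342-65410641 (plus), GULP1 at chr2:188291624-188291923 (plus) and CPEB2 at chr4:15002231-15002530 (plus).
IRS2: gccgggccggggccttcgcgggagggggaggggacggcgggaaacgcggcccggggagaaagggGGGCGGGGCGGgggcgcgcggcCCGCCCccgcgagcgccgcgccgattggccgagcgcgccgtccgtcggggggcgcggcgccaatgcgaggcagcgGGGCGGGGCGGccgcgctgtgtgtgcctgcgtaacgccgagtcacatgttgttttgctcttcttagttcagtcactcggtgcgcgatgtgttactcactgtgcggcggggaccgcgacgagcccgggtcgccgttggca
HS3ST1: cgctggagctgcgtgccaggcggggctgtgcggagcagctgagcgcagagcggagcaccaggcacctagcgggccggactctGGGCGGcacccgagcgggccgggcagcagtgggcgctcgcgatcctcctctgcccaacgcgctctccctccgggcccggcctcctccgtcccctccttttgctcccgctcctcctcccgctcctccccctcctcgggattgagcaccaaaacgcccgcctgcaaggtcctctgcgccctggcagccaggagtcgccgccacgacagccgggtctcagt
KITLG: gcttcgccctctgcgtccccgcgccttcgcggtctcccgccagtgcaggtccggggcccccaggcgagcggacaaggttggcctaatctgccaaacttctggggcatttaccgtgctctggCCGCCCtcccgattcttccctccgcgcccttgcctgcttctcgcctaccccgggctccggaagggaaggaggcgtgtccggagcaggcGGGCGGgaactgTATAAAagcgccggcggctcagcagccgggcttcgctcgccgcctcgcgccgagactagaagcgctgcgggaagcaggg
FUT8: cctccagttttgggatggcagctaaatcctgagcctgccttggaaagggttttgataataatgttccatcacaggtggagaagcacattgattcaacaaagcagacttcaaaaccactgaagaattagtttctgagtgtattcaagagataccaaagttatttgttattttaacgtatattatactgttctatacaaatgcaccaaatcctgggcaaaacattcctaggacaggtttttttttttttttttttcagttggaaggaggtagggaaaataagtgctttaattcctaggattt
GULP1: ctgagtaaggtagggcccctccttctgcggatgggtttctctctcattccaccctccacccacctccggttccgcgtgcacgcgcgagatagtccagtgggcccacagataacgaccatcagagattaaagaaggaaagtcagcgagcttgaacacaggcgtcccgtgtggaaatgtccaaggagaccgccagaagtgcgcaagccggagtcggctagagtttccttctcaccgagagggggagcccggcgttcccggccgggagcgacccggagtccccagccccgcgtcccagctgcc
CPEB2: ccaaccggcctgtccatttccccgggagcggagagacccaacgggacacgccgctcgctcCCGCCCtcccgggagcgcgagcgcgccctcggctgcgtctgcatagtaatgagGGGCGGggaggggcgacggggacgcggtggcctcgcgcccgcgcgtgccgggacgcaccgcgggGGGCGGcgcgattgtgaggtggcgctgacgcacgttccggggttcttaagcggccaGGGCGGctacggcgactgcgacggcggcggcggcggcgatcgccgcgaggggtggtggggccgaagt

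These windows differ in base composition. IRS2 (75.7% G+C, 5 GGGCGG matches) and CPEB2 (76.0%, 4 matches) are rich in CpG, with observed over expected CpG ratios of 1.21 and 1.20, the observed CpG count times the window length over the product of the C and G counts. FUT8, at 36.0% G+C with a CpG ratio of 0.104, holds neither motif. KITLG is the 1 window of the 11 matched changed genes with a TATAAA match. GULP1 has a CpG ratio of 0.817 with no GGGCGG.

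RefSeq windows were found for 262 of the 348 genes. Among the 198 of these that were tested, 69.2% had a CpG ratio of at least 0.6, 59.6% held GGGCGG and 9.09% held TATAAA. The shares over all 13589 tested protein-coding genes with a window were 72.7%, 64.2% and 7.56%. The 64 isolated genes with a window that had too little signal to test differed in the values: 43.8% had the CpG ratio, 40.6% GGGCGG and 18.8% TATAAA. Of the 11 changed genes with a window, 10 had the CpG ratio and 9 held GGGCGG. The AHR core motif GCGTG, searched because auxin is an indole, was in 5 of these 11 windows and in 46.9% of all tested ones. TGACTCA, the AP-1 site, and the 14-letter core of the CTCF motif were in 0 of the 11 and in 3.41% and 0.0809% of all tested windows. A match describes the letters only, and no match says only that the letters are not in this window.

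Isolated genes were spread over 23 chromosomes, with 37 on X, 30 on chromosome 2 and 28 on chromosome 4, against 2 on chromosome 19 and 1 on chromosome 22. Their spans ran from 446 to 495804 bases, with a median of 58669.5 against 24758.5 for all protein-coding genes. The smaller of the 2 gaps had a median of 394687 bases and reached 3896186. Of the 3 genes just inside the limit, WDR72 (gap 250025) and JCAD (250214) had log2 fold changes of 0.51 and 0.0058, and RAB11FIP2 (250983) had -0.23. Just outside it, MAGEE1 and PBDC1 (249395 each) had -0.07 and 0.20, and SLC38A4 (249709) had 0.48.

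Most isolated genes were weakly transcribed in these cells. Of the 348, 268 had enough signal to test, and 39 of the other 80 were listed at 0 in every library. The 268 had a median of 4.19 units per kb of span against 63.2 over all tested protein-coding genes. Together the 348 genes held 0.853% and 0.967% of the deposited signal in the control libraries and 0.769% and 0.800% in the auxin libraries. Both auxin shares lay below both control shares. Without the genes that passed the threshold described next, the shares were 0.632% and 0.689% in control and 0.655% and 0.687% with auxin, and the groups overlapped. Those genes were picked for their difference between the groups in these same libraries, and most of them fell. Leaving them out narrows the difference by construction, so the overlap is no result about the other isolated genes.

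With auxin, 10 isolated genes fell and 2 rose at an adjusted p under 0.05 (limma across all 39464 tested genes, Benjamini-Hochberg). The 12 make up 4.48% of the 268 tested, against a background of 1.17% over the 17767 tested protein-coding genes and 0.732% over tested genes of all types. By direction, 3.73% fell (background 0.681%) and 0.746% rose (background 0.490%). The difference in shares between isolated and other genes depended on the settings of the fit. It was small with the replicate number as a block, as given in the closing section. The falls included SOX9, IRS2, HS3ST1 and KITLG, each between 3.64-fold and 3.95-fold lower, and the rises were GULP1 and CPEB2. Over the whole list, the median log2 fold change of the 268 was -0.02, with an interquartile range from -0.26 to 0.15, against -0.01 over all tested protein-coding genes. The log2 fold change was negative in 146 of the 268.

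**Figure D1:**
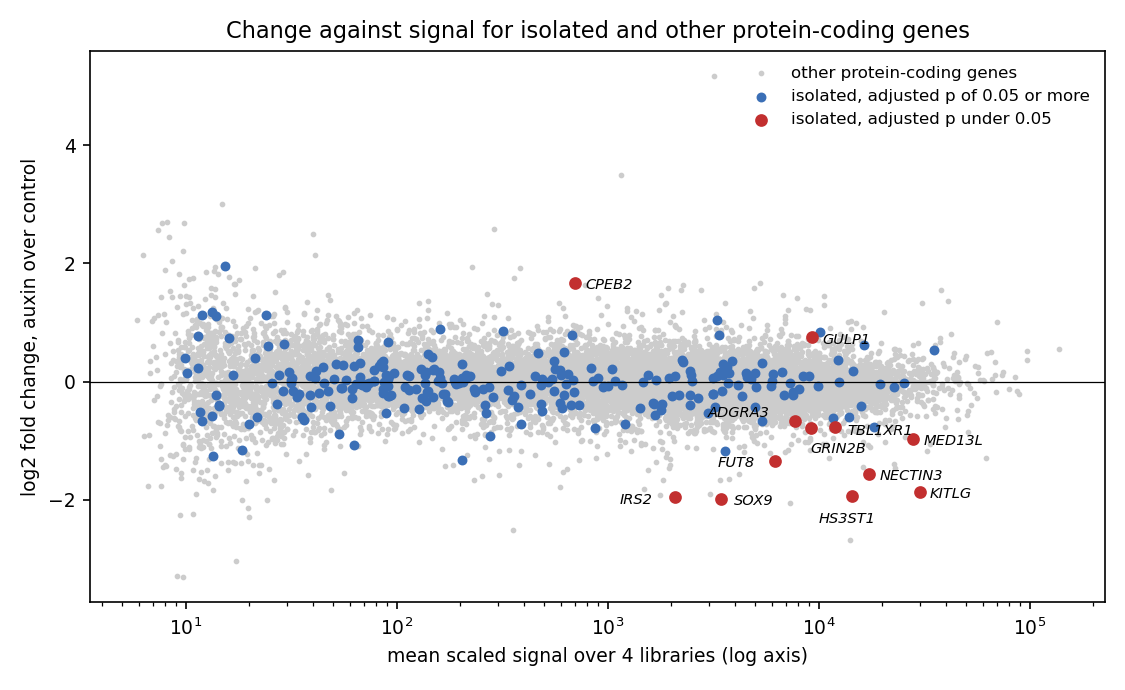
Log2 fold change (auxin over control) against the mean scaled signal over 4 libraries (log axis) for every tested protein-coding gene; isolated genes are coloured and those with an adjusted p under 0.05 are red and named. The 12 named genes lie toward the right of the plot, with CPEB2 the lowest in signal (701), and the other isolated genes scatter on both sides of 0.

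The 12 genes belong to different functional classes. SOX9 is a transcription factor of cartilage and of intestinal progenitor cells. IRS2 is an adaptor below the insulin and IGF receptors, and KITLG is the ligand of the receptor KIT. HS3ST1 and FUT8 modify glycans, by sulfating heparan sulfate and by adding core fucose. NECTIN3 is a cell adhesion molecule, ADGRA3 an adhesion G-protein-coupled receptor and GRIN2B a subunit of the NMDA receptor. MED13L belongs to the kinase module of Mediator, TBL1XR1 to the NCoR/SMRT corepressor complex. GULP1 is an adaptor in the engulfment of dying cells, and CPEB2 binds polyadenylation elements in mRNA and controls translation.

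SOX9 (ENSG00000125398, chr17:72121020-72126416, plus strand) had a scaled signal of 4526 and 6526 in the control libraries and 1257 and 1507 with auxin. Both auxin libraries were well below both control libraries. SOX9 fell by 1.98 on the log2 scale (SE 0.19, adjusted p = 0.00183 by limma), a 3.95-fold fall, which was the largest fall among the tested isolated genes. The nearest protein-coding genes are 1940975 bases to the left (KCNJ2, listed at 0 in all libraries) and 519532 bases to the right (SLC39A11, log2 fold change 0.02). A non-coding gene on the opposite strand, AC007461.1, spans SOX9 whole and had 5047 and 7021 in control and 1609 and 1991 with auxin. Subtracting SOX9 left 520 and 495 in control and 351 and 484 with auxin, so most of the signal of AC007461.1 equals that of SOX9.

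IRS2 (ENSG00000185950, chr13:109752695-109786583, minus strand) stood at 3280 and 3363 in control and 927 and 789 with auxin. The control libraries differed little from each other and both auxin libraries lay far below them. The fold change was -1.96 on the log2 scale (SE 0.16, limma adjusted p = 0.00109). HS3ST1 (ENSG00000002587, chr4:11393150-11428894, minus strand) had 20536 and 25100 in control and 5602 and 6264 with auxin. Again the groups were far apart, with a log2 fold change of -1.94 (SE 0.13 and an adjusted p of 3.79e-04 by limma). By unadjusted p, HS3ST1 ranked 4 among all tested genes.

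KITLG (ENSG00000049130, chr12:88492793-88580851, minus strand) was the strongest of the 12 in mean signal, at 35690 and 59145 in control and 12209 and 13016 with auxin. Its control libraries differed from each other more than its auxin libraries did, but the groups did not overlap (log2 fold change -1.87 with an SE of 0.19; adjusted p = 0.0021 by limma). NECTIN3 (ENSG00000177707, chr3:111072168-111193539, plus strand) showed a like spread, at 21578 and 30444 in control and 8855 and 8471 with auxin. It fell by 1.57 on the log2 scale (SE 0.15, limma adjusted p = 0.00183). FUT8 (ENSG00000033170, chr14:65410592-65744121, plus strand), the gene without a CpG-rich window, had 8485 and 9357 in control and 3356 and 3716 with auxin. The fall of FUT8 was 1.33 on the log2 scale, or 2.52-fold (SE 0.13, limma adjusted p = 0.0021), and replicates of each group lay close together.

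A further set of 4 genes fell by less than 2-fold. MED13L (ENSG00000123066, chr12:115958576-116277693, minus strand) had 34018 and 39779 in control and 17316 and 20543 with auxin, a fall of 1.95-fold or -0.96 on the log2 scale (SE 0.12, adjusted p = 0.00664 by limma). GRIN2B (ENSG00000273079, chr12:13537337-13981602, minus strand), best known from neurons, had 11741 and 11335 in control and 6701 and 6773 with auxin. Replicates of GRIN2B nearly coincided within each group, and the change was -0.78 on the log2 scale (SE 0.12, adjusted p = 0.0176 by limma). TBL1XR1 (ENSG00000177565, chr3:177019344-177197482, minus strand) had 15292 and 14634 in control and 9070 and 8565 with auxin. ADGRA3 (ENSG00000152990, chr4:22387376-22516066, minus strand) had 9719 and 9193 in control and 6063 and 5848 with auxin. In both genes the groups were apart by more than their spread: the log2 fold change was -0.76 for TBL1XR1 (SE 0.11, adjusted p = 0.0165 by limma) and -0.67 for ADGRA3 (SE 0.12, adjusted p = 0.0419 by limma). ADGRA3 was the smallest of the 12 changes.

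GULP1 (ENSG00000144366, chr2:188291874-188595926, plus strand) rose from 7065 and 6728 in control to 12577 and 10675 with auxin. The groups did not overlap, and the rise was 0.75 on the log2 scale (SE 0.13, adjusted p = 0.0319 by limma). CPEB2 (ENSG00000137449, chr4:15002481-15070151, plus strand) had by far the lowest level of the 12, at 422 and 255 in control and 1269 and 859 with auxin. Despite the spread within each group, both auxin libraries were above both control libraries, by 1.67 on the log2 scale (SE 0.28, adjusted p = 0.0263 by limma), a 3.18-fold rise. CPEB2 overlaps the opposite-strand gene C1QTNF7-AS1, which had 869 and 563 in control and 1461 and 1051 with auxin. C1QTNF7-AS1 missed the threshold (log2 fold change 0.82, limma adjusted p = 0.208). Its values may include signal of CPEB2, so they do not show a rise of a second transcript.

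**Figure D2:**
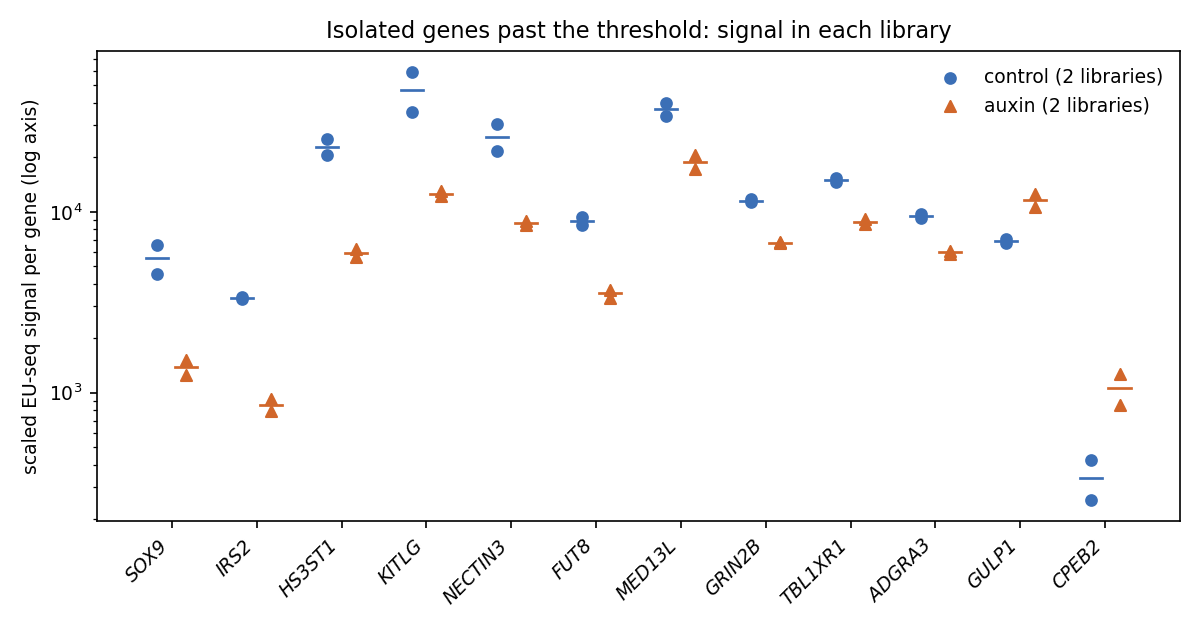
Scaled EU-seq signal per gene (log axis) in each control library (blue circles) and each auxin library (orange triangles) for the 12 isolated genes with an adjusted p under 0.05; horizontal lines are group means. In each gene the 2 groups are apart, and CPEB2 and GULP1 are the genes with auxin above control.

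With 1 library left out, the log2 fold changes of SOX9, IRS2, HS3ST1 and KITLG stayed between -2.24 and -1.50. These genes kept an adjusted p under 0.05 in each alternative setting of scaling, pseudocount, filter and block. On the deposited scale, without scaling between libraries, NECTIN3, FUT8, MED13L, GRIN2B, TBL1XR1, ADGRA3 and GULP1 missed it (adjusted p from 0.0831 for NECTIN3 to 1.0), and without control replicate 2, GRIN2B (0.0591), TBL1XR1 (0.0552), ADGRA3 (0.0966), GULP1 (0.105) and CPEB2 (0.0805) did. ADGRA3 also missed it without control replicate 1 (0.102) and without auxin replicate 2 (0.0733), and GULP1 without auxin replicate 1 (0.0663). With no filter on low values, both rises missed it (CPEB2 0.0775, GULP1 0.0792), as did ADGRA3 (0.0927), which also missed it with scaling by library total (0.0551).

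The isolated genes past the threshold were mostly those of high signal. None of the 47 isolated genes with a mean under 50, and none of the 106 between 50 and 500, passed the threshold, with 1 of 40 between 500 and 2000 (CPEB2). Protein-coding genes that are not isolated had 0 of 1726, 12 of 3431 and 41 of 3756 in these classes, so the low counts there are near the background. From 2000 to 10000, 6 of 57 passed (10.5%, against 1.21% of protein-coding genes that are not isolated), and at 10000 or more, 5 of 18 (27.8% against 3.79%). The 11 genes past 2-fold that missed the threshold, 5 lower and 6 higher, had a median signal of 18.5.

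Set against distance, the share of genes past the threshold was higher in each wider class of gap up to 250 kb. It was 0.672% for protein-coding genes that overlap another (31 of 4610), 0.838% with a gap under 10 kb (61 of 7281), 1.65% from 10 to 50 kb (65 of 3930) and 2.41% from 50 to 250 kb (39 of 1619). Within the isolated genes, the counts are too small to show whether the rise goes on: with gaps of at least 500 kb, 3 of 98 passed. Of the 59 equally isolated genes of 500000 bases or more, 0 were called by limma and 1 had an unadjusted p under 0.05. The median signal of these 59 was 506, against 1803 over all tested protein-coding genes. Whether signal bears on the counts of the 59 was not tested. Among genes with a signal of at least 2000 the same classes had 0.996%, 1.15%, 3.12% and 3.84%, and the isolated genes 14.7% (11 of 75). Longer genes also passed more often, but isolated genes had the higher share in each class of span: 2.86% against 0.534% under 10 kb, 4.65% against 1.10% from 50 to 100 kb, and 5.56% against 2.87% from 200 to 500 kb. These are counts over genes, with 1 to 4 isolated genes past the threshold in each class of span, and the difference in shares was not tested. All these shares are from the fit without the replicate block. With the block, the share over all isolated genes was little above that over other protein-coding genes.

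**Figure D3:**
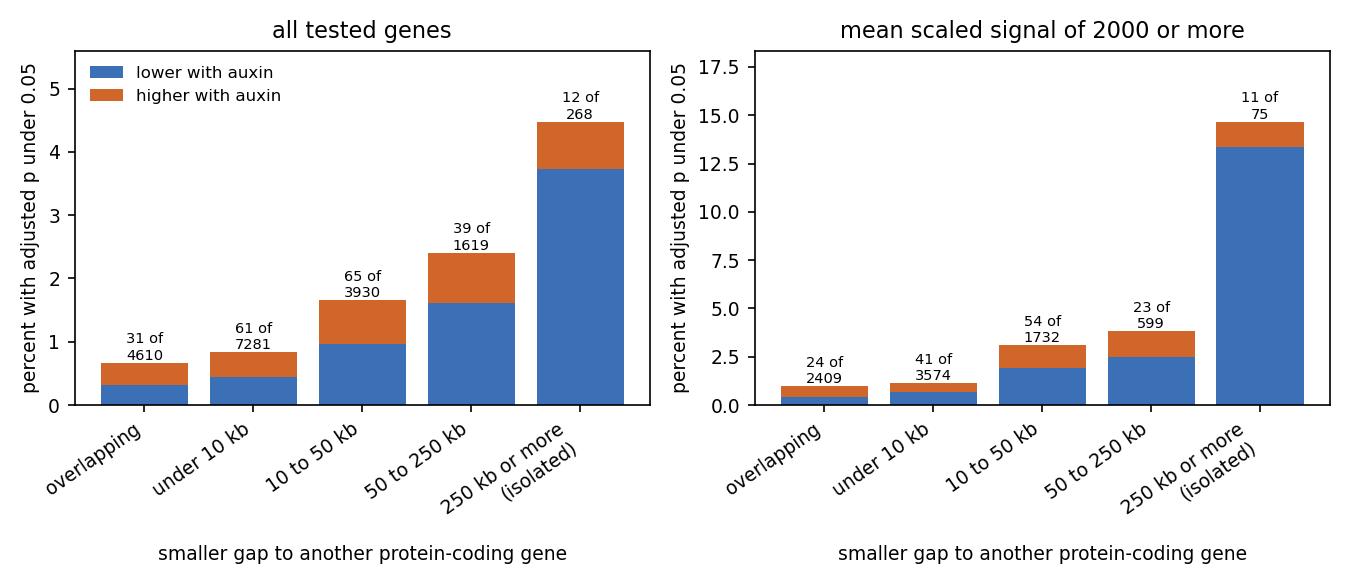
Percent of tested protein-coding genes with an adjusted p under 0.05, lower (blue) and higher (orange) with auxin, by the smaller gap to another protein-coding gene, for all tested genes (left) and for those with a mean scaled signal of at least 2000 (right). Counts above the bars run from 31 of 4610 to 12 of 268 on the left, and the isolated genes have the tallest bar in both panels. The fit is without the replicate block, under which isolated and other protein-coding genes differed little in share.

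By a looser measure, both auxin libraries lay below both control libraries in 68 of the 268 tested isolated genes (25.4%, background 23.8%) and above both in 44 (16.4%, background 20.5%), and the groups overlapped in 156. An unadjusted limma p under 0.05 was found for 45 (16.8%, against 14.6% of tested protein-coding genes). These shares were near the background. At a log2 fold change of -1 or below there were 11 isolated genes (4.10%, background 1.02%), and at 1 or above there were 7 (2.61%, background 1.04%).

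The most highly transcribed isolated genes per kb of span were MYC (2057 per kb), KLF6 (1764), NR2F2 (800), COX7C (644) and SOX9 (640). MYC, which drives growth, had 14576 and 18868 in control and 10180 and 11671 with auxin. The groups did not overlap, but the log2 fold change of -0.61 missed the threshold (limma adjusted p = 0.112). KLF6, a zinc finger transcription factor, had 10352 and 15648 in control and 17516 and 21986 with auxin, and NR2F2, an orphan nuclear receptor, had 5923 and 8603 in control and 10466 and 15602 with auxin. In both, each auxin library was above each control library, with log2 fold changes of 0.62 (limma adjusted p = 0.207) and 0.84 (limma adjusted p = 0.131). With 1 library left out, the log2 fold change of MYC ran from -0.78 to -0.42. That of KLF6 ran from 0.34 to 0.92 and that of NR2F2 from 0.55 to 1.14. COX7C, a subunit of cytochrome c oxidase, had 1787 and 2031 in control and 1987 and 1974 with auxin, and its groups overlapped.

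Developmental transcription factors were the largest family, with 47 isolated genes, 30 of them tested. SOX9 fell and none rose, and the median log2 fold change of the 30 was 0.11. Among genes of this family that are not isolated, 8 of 243 passed the threshold (3.29%). MSX2, a homeobox factor, was at 257 and 194 in control and 452 and 367 with auxin (log2 fold change 0.86, limma adjusted p = 0.173). SOX4, in the same family as SOX9, was at 1628 and 2123 in control and 1695 and 1205 with auxin, and its groups overlapped. Both genes were named after their values were seen.

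Cadherins and protocadherins, calcium-dependent adhesion molecules, numbered 13 with 12 tested, and none passed the threshold, nor did any of the 70 tested that are not isolated. Their median log2 fold change was 0.02. PCDH7 had the smallest p of them, at 3789 and 6219 in control and 1762 and 2616 with auxin (log2 fold change -1.18, limma adjusted p = 0.0710). Its groups did not overlap, and with 1 library left out the log2 fold change ran from -1.525 to -0.82. In the deposited table PCDH7 spans 67655 bases, but RefSeq gives 426432 (chr4:30720369-31146800), so the signal covers part of the gene. AC098595.1, a non-coding gene on the opposite strand at the RefSeq start of PCDH7, did fall, from 117 and 195 to 31.2 and 47.2 (log2 fold change -1.95, limma adjusted p = 0.0408).

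Synaptic adhesion and leucine-rich repeat proteins (11 genes, 7 tested) had no member past the threshold and a median of -0.07, beside 4 of 82 (4.88%) among those that are not isolated. LRFN2, which had the smallest p, was at 55.1 and 87.0 in control and 109 and 112 with auxin (log2 fold change 0.67, limma adjusted p = 0.519). Axon guidance ligands and receptors (6 genes, all tested) had none past it and a median of -0.19, beside 1 of 67 (1.49%). EPHA4, an ephrin receptor, was at 1247 and 963 in control and 614 and 652 with auxin, with groups apart and a log2 fold change of -0.79 (limma adjusted p = 0.127).

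Secreted signals, their receptors and inhibitors, together with enzymes and adaptors that act on them, numbered 16, with 13 tested. HS3ST1, an enzyme, and IRS2, an adaptor, fell, none rose, and the median was -0.13. None of the signals, receptors or inhibitors in the list passed the threshold. The list was made with earlier results of these data known, so its count is no independent support. Of the genes of this list that are not isolated, 8 of 273 passed the threshold (2.93%). BMP4, a bone morphogenetic protein, was at 2692 and 4352 in control and 1887 and 2960 with auxin, and its groups overlapped. SPRY2, an inhibitor of receptor tyrosine kinase signalling, was at 744 and 538 in control and 693 and 550 with auxin. HS3ST3A1, an enzyme related to HS3ST1 and isolated like it, had a log2 fold change of 0.10 (limma adjusted p = 0.974). KITLG was not in this list, and BMP4, SPRY2 and HS3ST3A1 were named after their values were seen.

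Ion channels (11 genes, 10 tested) had 1 fall, GRIN2B, and a median of -0.04, beside 3 of 214 past the threshold (1.40%) among ion channels that are not isolated. G-protein-coupled receptors (7 genes, 4 tested) had 1 fall, ADGRA3, and a median of 0.06, beside 2 of 239 (0.837%). Protein kinases and phosphatases (9 genes, 7 tested) had none past the threshold, beside 2 of 311 (0.643%). PPP3CA, the catalytic subunit of calcineurin, had the smallest p among them, at 19740 and 26592 in control and 12005 and 15030 with auxin (log2 fold change -0.77, limma adjusted p = 0.0670). Its groups did not overlap, and with 1 library left out the log2 fold change ran from -0.98 to -0.56. Of the isolated genes in none of these lists, 179 were tested, 5 fell (KITLG, NECTIN3, FUT8, MED13L and TBL1XR1) and 2 rose (GULP1 and CPEB2), and the median was -0.02.

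A pair of further genes, named after their values were seen, did not pass the threshold. BCOR, a corepressor that binds BCL6, was at 31530 and 26266 in control and 41323 and 41978 with auxin (log2 fold change 0.53, limma adjusted p = 0.0677). The groups were apart. ZNF804A, a zinc finger gene, had 1577 and 2761 in control and 3460 and 5408 with auxin (1.05, limma adjusted p = 0.139), again with groups apart.

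The deserts are not empty of other genes. Genes of other types lying within the 250000 bases on either side of an isolated gene, or overlapping it, numbered 2412, of which 1053 were tested. Of these, 6 fell and 1 rose, or 0.665%, against a background of 0.373% over all tested genes of other types. AC006230.1, which overlaps HS3ST1, may share its signal. Most of the signal of AC007461.1 equals that of SOX9, which it overlaps. Among the genes apart from the isolated gene, 5 of 868 were called (0.576%). These 5 include AC098595.1, which lies at the RefSeq start of PCDH7. AC006230.1, a long non-coding RNA gene that overlaps the start of HS3ST1 on the opposite strand, fell from 5744 and 6708 to 1916 and 1870 (log2 fold change -1.71, limma adjusted p = 0.00111). AC010998.1, 16.0 kb from WDR11, rose from 162 and 161 to 459 and 393 (1.39, limma adjusted p = 0.0214), while WDR11 itself had a log2 fold change of 0.11. PVT1, downstream of MYC, fell by 0.49 on the log2 scale (limma adjusted p = 0.0312). AP001924.1 near BLID (-2.37) and BX005040.4 near SPATA31A5 (-1.53) also fell. BLID was not called, and SPATA31A5 had too little signal to test. The genes of other types outside the deserts of the 12 were named after their values were seen.

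Genes of other types gave different counts inside and outside the isolated genes that fell. Inside or overlapping the 10 genes that fell, 14 genes of other types were tested; all 14 had a negative log2 fold change, 10 had an unadjusted p under 0.05, 2 were called and the median was -1.13. For AC007461.1, most of the signal equals that of SOX9, as given above. For the others, separate transcripts and reads of the host gene cannot be told apart in this table. Apart from those 10 genes but in the same deserts, 34 were tested, 4 had an unadjusted limma p under 0.05, none was called and the median was 0.01. Of the genes apart but within about 1 kb of the isolated gene, SOX9-AS1, 0.212 kb from SOX9, was at 282 and 278 in control and 77.6 and 147 with auxin (-1.38, limma adjusted p = 0.0911). NECTIN3-AS1, 0.643 kb from NECTIN3, was at 977 and 1749 in control and 581 and 664 with auxin (-1.07, limma adjusted p = 0.116). AC024941.2, 1.17 kb from KITLG, had a log2 fold change of -0.53 (limma adjusted p = 0.510), and CPEB2-DT, 0.435 kb from CPEB2, which rose, had 0.19 (0.965). LINC00511, 164 kb from SOX9 and strongly transcribed, was at 71740 and 72996 in control and 61406 and 97964 with auxin, and its groups overlapped. These 5 genes too were named after their values were seen.

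The protein-coding genes at the far edges of the same deserts did not pass the threshold. Of the 24 nearest protein-coding neighbours of the 12 genes, 23 were tested, 0 were called by limma (background 1.17%) and 2 had an unadjusted p under 0.05 (background 14.6%), so with so few genes the absence of calls is near the background. These 2 were TFPI beside GULP1, at 658 and 998 in control and 1608 and 1879 with auxin (log2 fold change 1.10, limma adjusted p = 0.0575), and EMP1 beside GRIN2B, at 5564 and 7222 in control and 2713 and 3919 with auxin (-0.96, limma adjusted p = 0.0632). Each had the same sign as its isolated neighbour, and both were named after their values were seen. The median of the 23 was -0.0049.

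**Figure D4:**
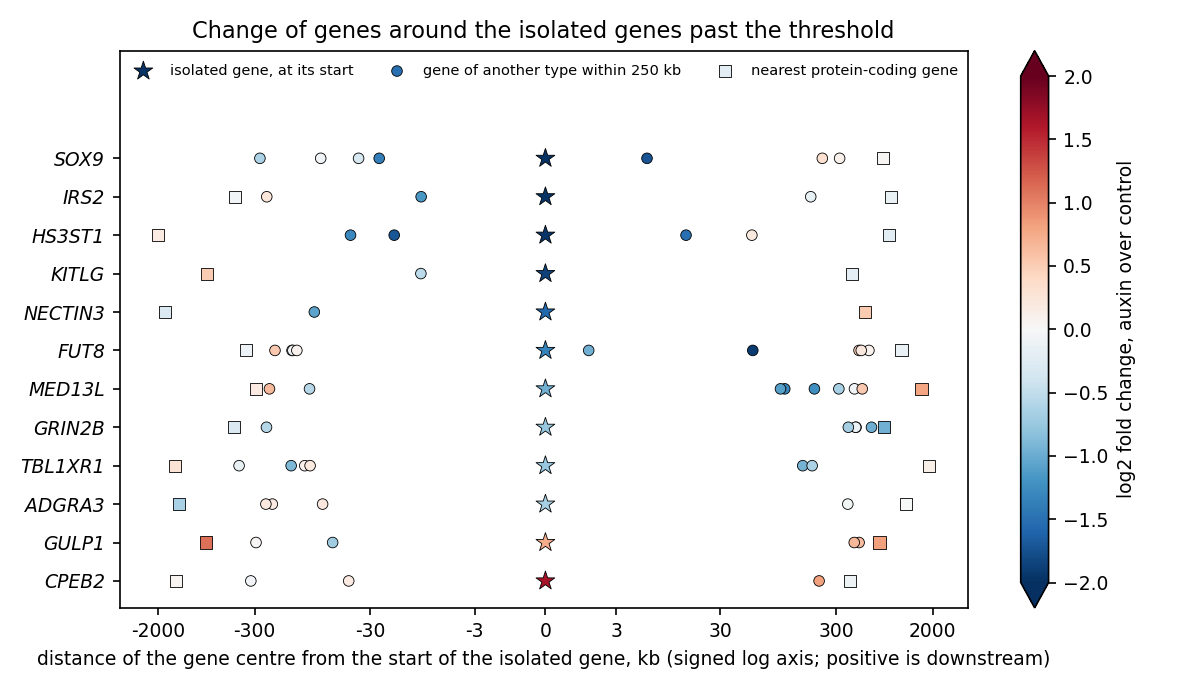
Log2 fold change (colour, auxin over control) of genes around each of the 12 isolated genes, placed by the distance of their centre from the start of the isolated gene in kb (signed log axis, positive downstream); stars are the isolated genes, circles genes of other types within 250 kb of its span, squares the nearest protein-coding genes. Blue circles cluster near the stars of the genes that fell, and the squares are mostly pale, with a median of -0.0049.

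Several properties of the table bear on these values. Of the 268 tested genes, 113 overlap another tested gene and 155 do not; 8 of the 113 and 4 of the 155 passed the threshold, and because strand use in counting is not given in the sources used here, overlapping genes can share signal. By RefSeq spans, 11 of the 12 genes are still isolated and IRS2 is not, and 287 of 337 compared genes are. The 37 isolated genes in families of near-identical copies, where counting may split reads, had 13 tested and 0 called by limma. With so few genes, this is near the background of 1.17%. Control replicate 2 was higher than control replicate 1 in 21 of the 29 short isolated genes (under 10 kb, mean at least 50), with a median log2 difference of 0.23; SOX9, MYC, KLF6 and NR2F2 are short genes, and the part of this difference in their values was not tested.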

How the data were processed

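EU-seq was analysed in 2 control and 2 auxin libraries of HCT116 RAD21-mAC cells. The authors deposited 1 table of scaled signal per gene and library, with positions, spans and types. Per the submitters' processing notes, Trimmomatic 0.39, Bowtie2 2.4.5 and deepTools 3.5.1 were used with hg38 and dm6. Their roles, the counting, its strand setting, the annotation and the scaling are not given in the sources used here. Per the labels' protocols, labelled fly S2 RNA was added before capture and the library kit was strand-specific. One control column with a misspelt name was taken as control replicate 2. Starts matched RefSeq when counted from 0, and are printed 1 higher on GRCh38.

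Genes were tested if they reached 10 in at least 2 libraries and 15 in total, scaled for library size. Libraries were scaled by trimmed means of log ratios (30% and 5% trimmed). The log2 of the signal plus a pseudocount of 1 was fitted with limma 3.58.1 (R 4.3.3) with an intensity trend, without a block, and p-values were adjusted over all tested genes at 0.05. This log2 scale understates changes of low genes. The deposited signal is not whole counts, and no count model was run. In bulk RNA, fewer cells transcribing a gene and less RNA per cell cannot be told apart. The procedure was tested on simulated data. Python 3.11.15 with pandas 2.3.3 joined the tables, and matplotlib 3.10.9 drew the figures.

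The members and gene lists were chosen with earlier results of these data known. Named genes were those past the threshold, the 5 highest per kb, the gene with the smallest p in each list, the 3 genes on each side of the gap limit and called genes of other types in the deserts of genes past the threshold; others are said to be named after their values were seen. The alternatives were median-ratio scaling, scaling by library total, the deposited scale, pseudocounts of 0.1 and 10, leaving out each library, blocking on the replicate number, a stricter adjusted p of 0.01, dropping the filter or requiring a mean of 50, gaps of 150 or 500 kb, no limit on span, and genes without an overlapping gene.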

Additional observations from a re-analysis of the deposited data

How the results depend on the processing

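The count of 12 isolated genes past the threshold became 5 on the deposited scale (all 5 among the 12), 7 at an adjusted p under 0.01, 20 with gaps of at least 150 kb, 3 with gaps of at least 500 kb (98 genes tested) and 4 among genes with no overlapping tested gene. Leaving out 1 library gave 8 (without control replicate 2) to 21 (without auxin replicate 2). The median log2 fold change of -0.02 became 0.010 with scaling by library total and -0.059 without overlapping genes, and was -0.046 to -0.038 with 1 library left out. The percent past the threshold among isolated genes was 4.0 times that among other protein-coding genes, 16.3 times on the deposited scale, 6.27 times with no filter, 8.31 times at an adjusted p under 0.01, and 3.02 to 5.92 times with 1 library left out. The 7 called genes of other types in the deserts became 3 with no filter, 4 with a mean of at least 50, 3 at an adjusted p under 0.01, and 3 to 22 with 1 library left out. The log2 fold change of COX7C turned to -0.027 without control replicate 1, and reached 0.15 without control replicate 2. The cause of these changes was not tested, beyond the fewer genes or libraries that some settings use. With 1 library left out, 1 group holds a single library and its spread is not measured.

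With the replicate number as a block, 51 of the 268 tested isolated genes passed (34 lower, 17 higher). So did 69 of the 1053 tested genes of other types in the deserts. Calls were frequent under this setting, and 16.9% of the protein-coding genes that are not isolated passed too. The share among isolated genes was then 1.13 times that among other protein-coding genes, against 4.0 times without the block. Most of the difference in shares was thus absent under this setting. The block fit took each gene's spread from the intensity trend alone, as did the fits on the deposited scale and without an auxin library. The fit without the block also used each gene's own spread, so the 2 ratios are not on equal terms. No background for the 69 is given here. Deviations of same-numbered libraries correlated at 0.36 across protein-coding genes and 0.23 across the isolated genes. No label ties a number to 1 day or culture, and with only 2 pairs the correlation does not settle the pairing. With 2 libraries a group and an unknown read depth, few genes of low signal passed the threshold.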

Other observations

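Isolated genes of 500000 bases or more, which the length limit leaves out, numbered 59, and all 59 had enough signal to test. By limma 0 were called (background 1.17%) and 1 had an unadjusted p under 0.05 (background 14.6%). With so few genes, 0 called is near the background. Their median signal was 506, against 1803 over all tested protein-coding genes. Their log2 fold changes ran from -0.54 to 0.23, with a median of -0.05, and 37 were negative.

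Of the nearest protein-coding neighbours of all 348 isolated genes, 560 were tested, and 12 passed the threshold (9 lower, 3 higher, 2.14%, background 1.17%). Among these neighbours, ADGRA3 and MED13L are themselves isolated genes, already counted above as falls. The difference in shares was not tested. IRS1, an insulin receptor substrate like IRS2 and a neighbour of the isolated gene NYAP2, had a log2 fold change of -2.06. Also among the 12 were EFNB2, an ephrin ligand, which fell (-1.07), and TFAP2A, a transcription factor, which rose (1.46). IRS1, EFNB2 and TFAP2A were named after their values were seen.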
